A study of Homo sapiens with 6 samples.

Results

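Histones are the small basic proteins that wrap DNA into nucleosomes, and 10 histone genes whose RNA can carry a poly(A) tail were followed here out of 26228 rows of an expression table from AsPC-1 cells. They were taken by symbol and all 10 were found. They fall into variants (H2AFX, H2AFZ, H2AFV, H2AFY and H3F3B), a linker histone made outside the histone clusters (H1F0), and cluster genes (HIST1H1C, HIST1H2AC, HIST1H2BK and HIST2H2BE). AsPC-1 is an established human pancreatic adenocarcinoma cell line. The compared groups were 3 libraries of cells given DON and 3 libraries of cells given vehicle. DON, in full 6-diazo-5-oxo-L-norleucine, resembles glutamine and blocks enzymes that consume it. Both groups spent the 24 h of treatment in medium without serum. How the replicates were separated is not in the labels, and the spread behind each p-value may therefore be technical. Poly(A) RNA was sequenced, and the deposited values are FPKM, fragments scaled by transcript length and by the number of mapped fragments.

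Most histone protein is made in S phase from clustered genes, which lack introns. Their messages end in a short stem-loop in place of a poly(A) tail, bound by the stem-loop binding protein. A library made by poly(A) selection therefore holds the stem-loop messages poorly. Variant genes lie outside the clusters, mostly have introns and poly(A) tails, and are transcribed through the cell cycle. Some cluster genes, and the variant H2A.X, can give both kinds of message, with the longer one running past the stem-loop to a poly(A) signal.

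This double form can be read in the annotated transcripts. The stem-loop of the members that hold it in GENCODE release 29 is shown here, with the paired arms in capitals and the loop in lower case.
H2AFX: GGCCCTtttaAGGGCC
HIST1H2AC: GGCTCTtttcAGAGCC
HIST2H2BE: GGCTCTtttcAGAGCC
The annotated transcript ran on for 1044 bases past the stem-loop in H2AFX, for 1114 bases in HIST1H2AC (1 of its 2 transcripts) and for 1729 bases in HIST2H2BE, and each of these stretches held a poly(A) signal hexamer (AATAAA or ATTAAA). No match was found in the annotated protein-coding transcripts of the other members. For HIST1H1C and HIST1H2BK that says only that the annotated transcript used here does not hold these letters.

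Reads of 75 bases can come from near-identical copies, so the 75-base windows of each member's protein-coding transcripts were compared with all other annotated genes on the same strand. None of the windows of H2AFX, H2AFY, H1F0, HIST1H1C or HIST1H2AC occurred in another gene. The share was 1.88% in H2AFZ, 1.62% in H2AFV, 2.68% in H3F3B and 4.95% in HIST2H2BE. HIST1H2BK stood apart, with 155 of 307 windows (50.5%) present in other genes, 130 of them in H2BFS, an H2B copy. Its annotated transcript in that release covers little beyond the coding part, and the authors' own annotation is not given in the sources used here, so the HIST1H2BK value is uncertain. For cluster genes in general, exact windows are a lower limit, because reads with mismatches can also be shared.

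The promoters of 9 of the 10 members were found in RefSeq (build GRCh38.p14). H2AFY and HIST1H2BK had 2 entries each, of which only the entry listed first was used. The 250 bases before the start are printed for the variant that fell most, for the most abundant variant and for both H2B genes. Capitals mark every match, on either strand, to CCAAT, to the octamer ATTTGCAT, to TATAAA and to TTTGAA. The octamer and the CCAAT box are known elements of histone promoters, TATAAA is the TATA box, and TTTGAA is the cell cycle homology region of many genes of cell division.
H2AFX, chr11:119095466-119095715, minus strand: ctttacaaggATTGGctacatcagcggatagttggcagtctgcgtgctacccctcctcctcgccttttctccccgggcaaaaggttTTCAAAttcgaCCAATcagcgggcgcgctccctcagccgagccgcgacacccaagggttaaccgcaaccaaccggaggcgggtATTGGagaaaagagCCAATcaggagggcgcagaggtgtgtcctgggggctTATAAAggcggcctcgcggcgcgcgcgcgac
H2AFZ, chr4:99950276-99950525, minus strand: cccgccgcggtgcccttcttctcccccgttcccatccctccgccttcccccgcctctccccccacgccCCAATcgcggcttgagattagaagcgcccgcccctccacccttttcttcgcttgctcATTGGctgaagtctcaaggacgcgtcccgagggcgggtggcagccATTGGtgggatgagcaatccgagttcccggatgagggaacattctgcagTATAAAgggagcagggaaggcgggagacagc
HIST1H2BK, chr6:27146859-27147108, minus strand: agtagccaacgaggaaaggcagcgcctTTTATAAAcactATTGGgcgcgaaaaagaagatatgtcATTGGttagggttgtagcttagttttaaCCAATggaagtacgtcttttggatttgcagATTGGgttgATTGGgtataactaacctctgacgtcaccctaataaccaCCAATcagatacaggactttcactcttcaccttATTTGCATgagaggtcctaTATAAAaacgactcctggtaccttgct
HIST2H2BE, chr1:149886683-149886932, minus strand: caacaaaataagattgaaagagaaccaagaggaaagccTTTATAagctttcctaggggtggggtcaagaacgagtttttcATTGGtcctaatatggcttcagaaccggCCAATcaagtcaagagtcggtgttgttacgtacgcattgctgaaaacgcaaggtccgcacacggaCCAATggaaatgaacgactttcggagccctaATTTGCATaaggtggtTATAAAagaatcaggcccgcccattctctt
Of the 9 promoters, 8 held CCAAT, 4 the octamer, 6 TATAAA and 1, that of H2AFX, TTTGAA. Among 35116 promoter windows of the same length, CCAAT occurred in 32%, the octamer in 1.63%, TATAAA in 10.7% and TTTGAA in 13.3%. In HIST1H2BK a forward and a reverse TATAAA match overlap near the left end of the window. These matches describe the letters and are not evidence of binding.

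The libraries were of similar total, with FPKM sums of 525200 to 556950. FPKM holds no read counts, so depth is unknown. Steps between low values of the same gene gave a relative depth of 1.26 to 1.39 in DON libraries and 1 to 1.69 in vehicle libraries, with vehicle 1 as 1. All 9 epithelial and adenocarcinoma markers reached 1 FPKM, 2 of them with failed values in some library, and 0 of 14 markers of fibroblasts, leukocytes, endothelium and acinar cells did. Libraries also differed along a second principal component (19.7% of the variance) that did not follow treatment, with DON 2, DON 3 and vehicle 3 on its positive side and DON 1, vehicle 1 and vehicle 2 on its negative side.

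The 5 variants and HIST1H1C fell with DON, the other 4 members did not pass, and none rose. Of the 10 members, 6 passed as lower and 0 as higher in limma on log2(FPKM + 1) with Benjamini-Hochberg adjustment over 11471 tested genes (threshold 0.05). Among all tested genes 38.9% passed, 20.6% as lower and 18.3% as higher. Only 3 members (H2AFX, H2AFZ and HIST1H1C) passed without DON 2 or with no filter on low values, and over all genes 4459 passed, against 2697 without DON 2 and 2942 with no filter. In 7 of 10 members every DON library lay below every vehicle library, which held for 26.5% of all tested genes. The median log2 fold change was -0.49 over the members and -0.01 over all tested genes. Summed over the 10 genes, the level was 967.9 ± 31.9 FPKM in DON and 1333 ± 61.7 FPKM in vehicle (mean ± SD, n = 3 each). In bulk RNA, fewer cells making a message and less of it per cell cannot be told apart.

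**Figure D1:**
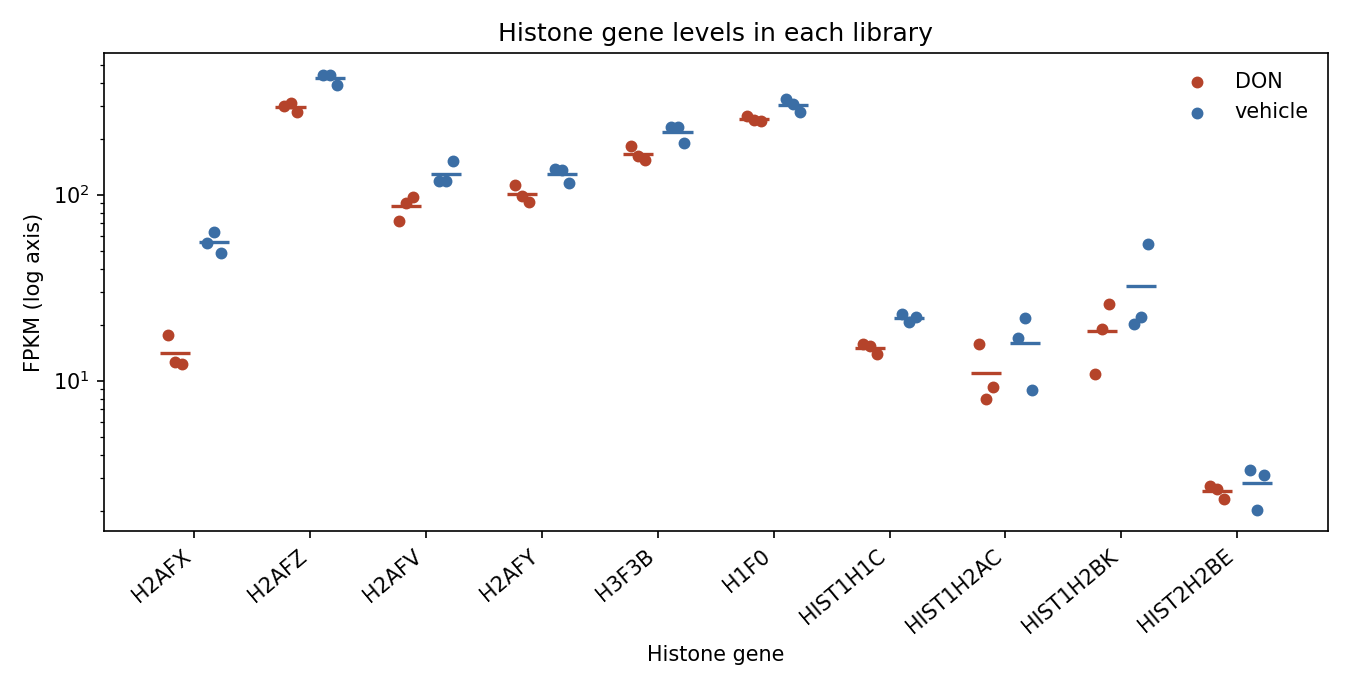
Level of each of the 10 histone genes in FPKM on a log axis, with 1 point per library (DON red, vehicle blue) and the group mean as a bar. H2AFX shows the widest gap, from 12.2 to 17.6 FPKM in DON and from 48.4 to 62.8 FPKM in vehicle, while the DON and vehicle points of HIST1H2AC, HIST1H2BK and HIST2H2BE overlap.

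H2AFX encodes H2A.X, the H2A variant that is phosphorylated around DNA double-strand breaks. It showed the largest change among the 10 members. H2AFX stood at 17.6, 12.6 and 12.2 FPKM in the DON libraries and at 55.3, 62.8 and 48.4 FPKM in the vehicle libraries. The groups were far apart, and DON 1 was the highest of the DON libraries. The mean was 14.1 ± 2.995 FPKM in DON and 55.5 ± 7.15 FPKM in vehicle, 3.92-fold lower with DON. The log2 fold change of H2AFX was -1.91 ± 0.16 (SE; 95% interval -2.29 to -1.53, limma adjusted p = 0.000251). Only 0.514% of tested genes had a lower log2 fold change. The longest annotated H2AFX transcript is rich in G and C (66.4%, above that of 97.8% of tested genes). A correction of the values for GC content, chosen after seeing the data, gave -1.55 (limma adjusted p = 2.6e-05). Leaving out any 1 library gave log2 values of -2.07 to -1.82, each of which passed.

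H2A.Z, the variant placed beside promoters by remodelling complexes, is made by the gene pair H2AFZ and H2AFV. H2AFZ was the most abundant member in both groups. It stood at 301, 312 and 278 FPKM in DON libraries and at 442, 440 and 391 FPKM in vehicle libraries. The groups of H2AFZ did not overlap, and replicate 3 was the lowest of either group. Its log2 fold change was -0.51 ± 0.09 (limma adjusted p = 0.00531), and the call held without any 1 library. H2AFV stood at 72.5, 90.2 and 97.1 FPKM in DON libraries and at 118, 119 and 152 FPKM in vehicle libraries. Every DON library was again below every vehicle library, but here replicate 3 was the highest of either group. Its log2 fold change was -0.58 ± 0.15 (limma adjusted p = 0.0211), and the call was lost without DON 2 (adjusted p = 0.0584) and with no filter (adjusted p = 0.112). Together the H2A.Z genes gave 383.8 ± 16 FPKM in DON and 553.9 ± 9.28 FPKM in vehicle. DON libraries held 69.3% of the vehicle level.

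H2AFY encodes macroH2A, an H2A variant with a large extra domain that is enriched on silent chromatin. It stood at 113, 97.9 and 91.0 FPKM in DON libraries and at 137, 135 and 115 FPKM in vehicle libraries. The groups came close, with DON 1 just under vehicle 3. Its mean was 1.29-fold lower in DON, with a log2 fold change of -0.36 ± 0.11 (limma adjusted p = 0.0427). H3F3B, a gene of the H3 variant H3.3 that is deposited outside replication, stood at 184, 162 and 153 FPKM in DON libraries and at 232, 232 and 190 FPKM in vehicle libraries. DON 1 and vehicle 3 were again the nearest pair, without overlap. The log2 fold change of H3F3B was -0.39 ± 0.12 (limma adjusted p = 0.0355). Both calls were lost when DON 2, DON 3, vehicle 1 or vehicle 2 was left out. Adjusted p was then 0.127 to 0.134 for H2AFY and 0.110 to 0.117 for H3F3B. With no filter it was 0.140 for H2AFY and 0.125 for H3F3B, and in limma without a trend it was 0.0511 for H2AFY.

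Linker histones bind the DNA between nucleosomes, and the non-cluster and the cluster gene were compared. H1F0, which makes H1.0, the linker histone typical of differentiated and resting cells, stood at 264, 253 and 251 FPKM in DON libraries and at 326, 309 and 277 FPKM in vehicle libraries. Its DON values lay within a narrow range below all vehicle values, but it did not pass (log2 fold change -0.24 ± 0.09, 95% interval -0.46 to -0.03, limma adjusted p = 0.0687). It passed without vehicle 3 (adjusted p = 0.0379). HIST1H1C, the cluster gene of H1.2, stood at 15.8, 15.4 and 13.9 FPKM in DON libraries and at 22.9, 20.6 and 21.9 FPKM in vehicle libraries. These groups were well separated, with small spread inside each. HIST1H1C fell, with a log2 fold change of -0.51 ± 0.09 (limma adjusted p = 0.00487), and the call held without any 1 library. With the GC correction its log2 fold change was -0.37 (limma adjusted p = 0.0114).

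**Figure D2:**
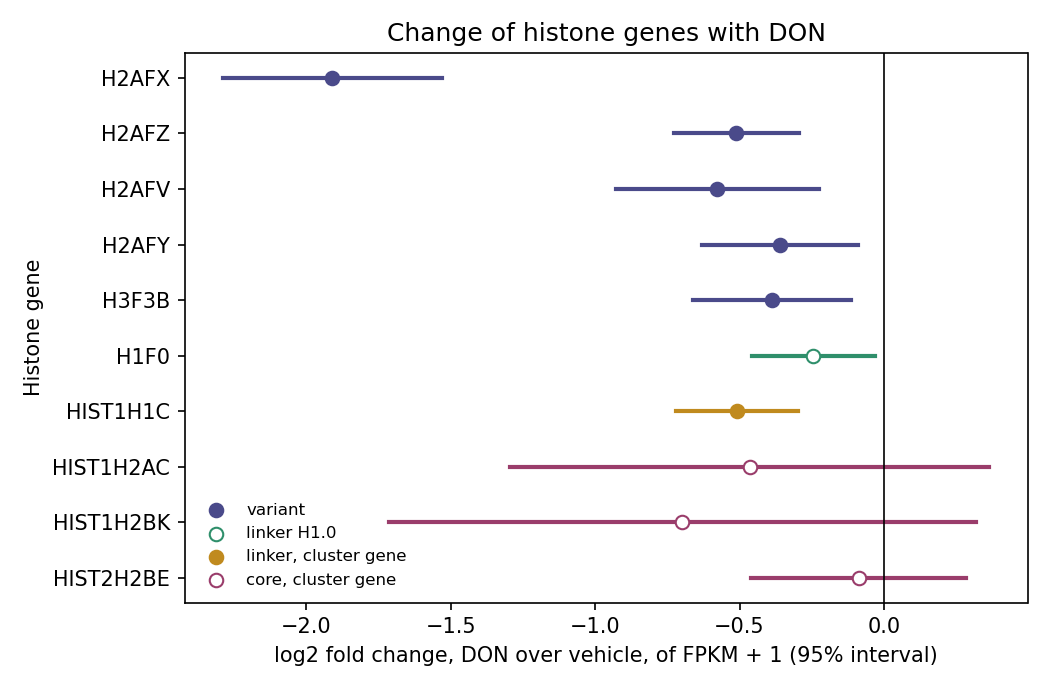
Log2 fold change of each histone gene, DON over vehicle, on the log2(FPKM + 1) scale, with its 95% interval from limma. Filled points passed the test and open points did not. All 5 variants and HIST1H1C are filled, H2AFX lies at -1.91 and the intervals of HIST1H2AC and HIST1H2BK are the widest.

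None of the 3 core histone genes of the clusters passed, and in each of them the DON and vehicle libraries overlapped. HIST1H2BK, an H2B gene, stood at 10.9, 18.9 and 25.8 FPKM in DON libraries and at 20.2, 22.1 and 54.3 FPKM in vehicle libraries. Vehicle 3 was its highest library and DON 1 its lowest. Its log2 fold change was -0.70 ± 0.43 (95% interval -1.71 to 0.32, limma adjusted p = 0.237), and -0.26 without vehicle 3. HIST1H2AC, an H2A gene, stood at 15.7, 7.93 and 9.29 FPKM in DON libraries and at 16.99, 21.8 and 8.86 FPKM in vehicle libraries. Here vehicle 3 sat among the low DON libraries and DON 1 beside the high vehicle ones. The log2 fold change of HIST1H2AC was -0.46 ± 0.35 (95% interval -1.29 to 0.36, limma adjusted p = 0.329), and it ran from -0.81 without vehicle 3 to -0.21 without vehicle 2. HIST2H2BE, an H2B gene of the second cluster, was the least abundant member, at 2.73, 2.60 and 2.30 FPKM in DON libraries and at 3.29, 2.02 and 3.09 FPKM in vehicle libraries. Vehicle 2 was its lowest library and vehicle 1 its highest. Its log2 fold change was -0.09 ± 0.16 (95% interval -0.46 to 0.29, limma adjusted p = 0.689), and 0.01 without vehicle 1.

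The spread of HIST1H2BK and HIST1H2AC followed the second principal component in opposite directions. On the positive side, HIST1H2BK averaged 22.4 FPKM in DON 2 and DON 3, against 54.3 FPKM in vehicle 3. On the negative side it was 10.9 FPKM in DON 1, against a mean of 21.1 FPKM in vehicle 1 and vehicle 2. DON was thus lower within each side, by -1.26 and -0.90 on the log2 scale. With a term for this side in the fit, a choice made after the data were seen, HIST1H2BK passed as lower (log2 fold change -1.08, limma adjusted p = 0.000756). The side was taken from these same expression values, so that p is not an independent test. In that fit 6031 of 11471 tested genes passed, against 4459 without the term. HIST1H2AC averaged 8.61 FPKM in DON 2 and DON 3, against 8.86 FPKM in vehicle 3, and was 15.7 FPKM in DON 1, against a mean of 19.4 FPKM in vehicle 1 and vehicle 2. Its log2 differences within the sides were -0.04 and -0.27, and the fit with the side term gave -0.16 (limma adjusted p = 0.311). H2AFX differed by -1.88 on the positive side and -1.69 on the negative side. Each side held only 3 libraries, with 1 library for a group, so these within-side values have no test of their own. The Spearman correlation with transcript GC content split the libraries in the same way. It was -0.421 in DON 2, -0.416 in DON 3 and -0.404 in vehicle 3. On the negative side it was 0.51 in DON 1, 0.228 in vehicle 1 and 0.307 in vehicle 2. What the component measures, and its part in these values, was not tested.

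**Figure D3:**
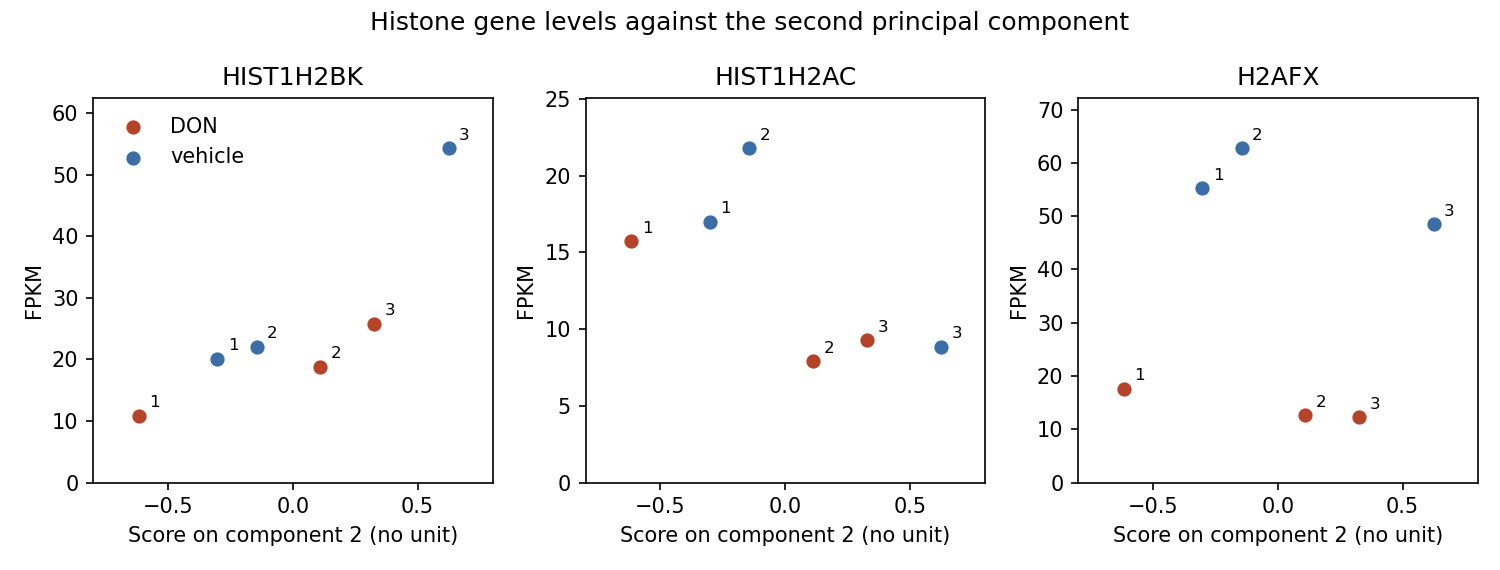
FPKM of HIST1H2BK, HIST1H2AC and H2AFX in each library (DON red, vehicle blue, replicate number beside each point) against the library's score on the second principal component of all tested genes. HIST1H2BK is highest at 54.3 FPKM in vehicle 3, which scores 0.624, where HIST1H2AC is only 8.86 FPKM, while H2AFX is lower in every DON library at any score.

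Ratios within a library compare members within the same sample. For 8 pairs of members, log2((FPKM + 1)/(FPKM + 1)) was compared between groups with an exact two-sided permutation test, for which 3 against 3 libraries allow no p under 0.1. H2AFX over H2AFZ was -4.02, -4.52 and -4.40 in DON libraries and -2.98, -2.79 and -2.99 in vehicle libraries, without overlap. The difference was -1.40 (exact p = 0.1, adjusted p = 0.2 over the 8 ratios), and the ratio was lower in all 3 DON libraries than in any vehicle library. HIST1H2AC over H2AFX was -0.15, -0.61 and -0.36 in DON libraries and -1.65, -1.48 and -2.33 in vehicle libraries, a difference of 1.45 (exact p = 0.1, adjusted p = 0.2). After the GC correction these differences were -0.99 for H2AFX over H2AFZ and 0.99 for HIST1H2AC over H2AFX (exact p = 0.1 each). H1F0 over HIST1H1C averaged 4.0021 ± 0.07 in DON and 3.74 ± 0.12 in vehicle, again without overlap (difference 0.26, exact p = 0.1, adjusted p = 0.2). That difference was 0.17 after the GC correction (exact p = 0.2). H2AFY over H2AFZ differed by 0.15 (exact p = 0.1, adjusted p = 0.2). It differed by 0.08 after quantile normalization (exact p = 0.5), by 0.08 without DON 1 and by 0.29 after the GC correction. The pair of H2A.Z genes kept a ratio of -1.78 ± 0.27 in DON and -1.71 ± 0.31 in vehicle (H2AFV over H2AFZ, difference -0.07, exact p = 0.7, adjusted p = 0.8). H3F3B over H2AFZ differed by 0.12 (exact p = 0.3). HIST1H2BK over HIST2H2BE differed by -0.61 (exact p = 0.5) and HIST1H2AC over HIST1H2BK by 0.23 (exact p = 0.9), each within the spread between libraries.

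**Figure D4:**
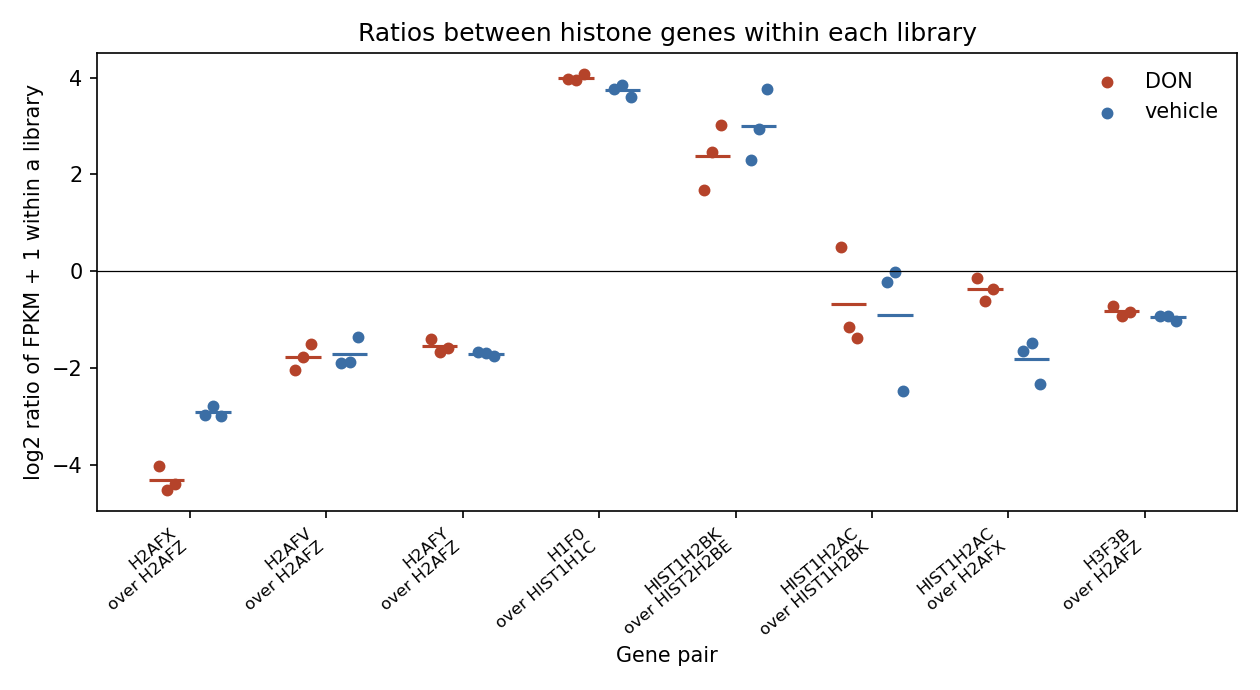
Log2 ratio of FPKM + 1 between histone genes within each library for 8 gene pairs, with 1 point per library (DON red, vehicle blue) and the group mean as a bar. H2AFX over H2AFZ lies at or below -4.02 in every DON library and at or above -2.99 in every vehicle library, whereas H2AFV over H2AFZ overlaps.

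FPKM is scaled by length, so the members can be ranked. In DON the order was H2AFZ, H1F0, H3F3B, H2AFY, H2AFV, HIST1H2BK, HIST1H1C, H2AFX, HIST1H2AC and HIST2H2BE. In vehicle H2AFV came before H2AFY, and H2AFX stood above HIST1H2BK and HIST1H1C. H2AFX thus held rank 8 in DON and rank 6 in vehicle. The library values of H2AFY and H2AFV overlapped in both groups. In DON those of HIST1H2BK, HIST1H1C, H2AFX and HIST1H2AC overlapped as well, so their order is not resolved. In vehicle HIST1H2BK overlapped H2AFX, HIST1H1C and HIST1H2AC, and HIST1H1C overlapped HIST1H2AC. The ranks of H2AFZ, H1F0, H3F3B and HIST2H2BE did not depend on which library was read.

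Among 11 other variant genes, 4 were tested, of which 1 fell and none rose (median log2 fold change -0.30). Beside this stand 20.6% lower and 18.3% higher among all tested genes. CENPA, the H3 variant of centromeres, stood at 3.42, 4.21 and 4.24 FPKM in DON libraries and at 19.3, 20.1 and 20.4 FPKM in vehicle libraries. It fell with a log2 fold change of -2.08 ± 0.10 (limma adjusted p = 3.87e-05), with little spread in either group. H1FX, a non-cluster linker histone gene, averaged 53.9 ± 6.93 FPKM in DON and 69.9 ± 16.7 FPKM in vehicle and did not pass (limma adjusted p = 0.155). H3F3A, the other gene of H3.3, was listed at the table's floor of 0.01 in all libraries but vehicle 3 (2.69 FPKM), while its copy H3F3AP4 was listed at 1.91 to 7.99 FPKM in DON and 4.96 to 13.1 FPKM in vehicle. H3F3A shares 337 of 3067 windows of 75 bases (11%) with H3F3AP4. Why H3F3A was listed at the floor was not tested, and its own level cannot be read from the table.

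Of 69 other cluster histone rows, 58 were too low to test and 20 of these were listed at the floor in all libraries. Of 11 tested, 2 fell and none rose (median log2 fold change -0.15), beside 20.6% lower and 18.3% higher among all tested genes. HIST1H4C, an H4 gene, stood at 5.45, 8.60 and 5.19 FPKM in DON libraries and at 20.3, 11.7 and 11.7 FPKM in vehicle libraries. The groups did not overlap (log2 fold change -1.06 ± 0.25, limma adjusted p = 0.0161), but vehicle 1 stood well above the others and the call was lost without DON 3 (adjusted p = 0.0515) and with no filter (adjusted p = 0.111). HIST1H2BN, an H2B gene, averaged 0.48 ± 0.47 FPKM in DON and 1.35 ± 0.217 FPKM in vehicle (limma adjusted p = 0.0450). Leaving out any library other than DON 2 ended that call, with an adjusted p of at most 0.137. It was also lost with no filter (0.178), with a pseudocount of 0.1 (0.0576) and after quantile normalization (0.0686).

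Of 25 tested histone chaperones, which carry and place histones, 8 fell and 3 rose (median log2 fold change 0.04), beside 20.6% lower and 18.3% higher among all tested genes. HJURP, which loads the centromeric variant, averaged 6.97 ± 0.201 FPKM in DON and 20.9 ± 1.6005 FPKM in vehicle (limma adjusted p = 8.56e-05). ASF1B, an H3-H4 chaperone of replication, averaged 9.97 ± 1.10 FPKM in DON and 19.1 ± 2.13 FPKM in vehicle (limma adjusted p = 0.00175). TONSL, a reader of newly placed histones, fell 1.84-fold, a call lost without DON 2 (adjusted p = 0.0534) and with no filter (adjusted p = 0.0792). UBN2, of the HIRA complex that deposits H3.3, rose to 5.34 ± 0.148 FPKM in DON, against 2.67 ± 0.0627 FPKM in vehicle (limma adjusted p = 0.000829). Of 18 genes of the complexes that exchange H2A.Z, 4 fell and none rose (median log2 fold change -0.03). Beside this stand the same 20.6% lower and 18.3% higher among all tested genes. The 4 that fell were SRCAP, the remodelling ATPase, BRD8, and RUVBL1 and RUVBL2, which are shared helicases. Their log2 fold changes were -0.58, -0.47, -0.33 and -0.44. The call of SRCAP was lost without DON 2, that of RUVBL1 without DON 2 or vehicle 1, and that of RUVBL2 without DON 3. Adjusted p was then 0.0569 for SRCAP, 0.0841 and 0.0528 for RUVBL1 and 0.0514 for RUVBL2. SRCAP and RUVBL2 were also lost with no filter (adjusted p = 0.0608 and 0.0509). RUVBL1 and RUVBL2 were lost after the GC correction (log2 fold changes -0.20 and -0.25, adjusted p = 0.109 and 0.0733).

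Of 23 genes of histone message processing and transcription, 6 fell and 3 rose (median log2 fold change 0.01), beside 38.9% called in either direction among all tested genes. POU2F1, the octamer-binding factor of H2B promoters, averaged 1.37 ± 0.126 FPKM in DON and 3.05 ± 0.165 FPKM in vehicle (limma adjusted p = 0.00183). CSTF2, a cleavage factor of message ends, fell 1.62-fold and UPF1, which helps degrade histone messages, fell 1.58-fold. CPSF1, of the cleavage complex, fell 1.57-fold, which no longer passed when DON 2, DON 3, vehicle 1 or vehicle 2 was left out (highest adjusted p 0.0954) or with no filter (adjusted p = 0.137). SLBP, the stem-loop binding protein, was looked up after its values were seen and did not pass, with 34.8 ± 2.54 FPKM in DON and 42.8 ± 5.97 FPKM in vehicle (limma adjusted p = 0.0948).

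In the damage signalling list that acts on H2A.X, 6 of 16 tested genes fell and 3 rose (median log2 fold change -0.04), again beside 38.9% called among all tested genes. PRKDC, a kinase that phosphorylates H2A.X, averaged 13.4 ± 0.627 FPKM in DON and 22.4 ± 2.31 FPKM in vehicle (limma adjusted p = 0.00224). NBN, of the break-sensing complex, fell 1.56-fold and PPP4C, a phosphatase of H2A.X, fell 1.45-fold. RAD50, a partner of NBN in that complex, rose to 45.8 ± 6.87 FPKM in DON, against 29.4 ± 5.09 FPKM in vehicle (limma adjusted p = 0.0187). It no longer passed when DON 2, DON 3, vehicle 1 or vehicle 2 was left out (highest adjusted p 0.0698) or with no filter (adjusted p = 0.105).

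Genes of S phase stood beside the histone genes as a reference at the RNA level, and replication itself was not measured. Of 18 tested, 14 fell and none rose (median log2 fold change -0.70), beside 20.6% lower and 18.3% higher among all tested genes. PCNA, the replication clamp, averaged 63.4 ± 3.14 FPKM in DON and 169 ± 12.5 FPKM in vehicle (limma adjusted p = 9.72e-05). CCNA2, the cyclin of S phase and G2, fell 4.41-fold, RRM2, a ribonucleotide reductase subunit, 3.53-fold and TYMS, the thymidylate synthase, 2.80-fold. These are the 4 genes of the list with the largest changes. Over all 14, the fall ran from 1.22-fold (E2F1) to 4.41-fold (CCNA2), and RRM1, CDC6, CDT1 and E2F2 did not pass. Whether less replication had a part in the histone values was not tested.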

How the data were processed

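Libraries were directional, made from poly(A) RNA and read as single 75 bp reads, per the labels' protocols. The submitters' processing notes name the aligner STAR and the build hg19. The authors deposited FPKM values; their program, annotation, strand setting and further scaling: not given in the sources used here. Columns marked control were taken as vehicle by replicate number. In 41 of 26228 rows a failure mark replaced at least 1 value, and these were not tested; no member was among them.

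Values were transformed to log2(FPKM + 1), which understates changes of low genes. The 11471 genes that reached 1 FPKM in 3 or more of 6 libraries were tested in limma 3.58.1 (R 4.3.3) with an intensity trend. The tests were two-sided, with Benjamini-Hochberg adjustment over all of these genes. The method was tested on simulated data with independent noise for each gene. The simulated data held no component shared between genes, unlike the libraries here. All members passed the filter. Fold values are ratios of FPKM means. The members and lists were chosen with earlier results of these data known. Besides the members, up to 4 called genes per list were chosen to be named, by size of log2 fold change. Tables and plots used Python 3.11.15, pandas 2.3.3, numpy 2.4.6 and matplotlib 3.10.9. Alternatives changed the pseudocount (0.1), the filter (none, or 5 FPKM), the scaling (median of ratios, or quantile), the trend (none) and the design (replicate block), or left out each library in turn. A GC correction and a term for the side (positive or negative) of the second principal component were added after seeing the data. The GC correction covered 10894 tested genes, and the 577 without a GC value were left out of it.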

Additional observations from a re-analysis of the deposited data

How the results depend on the processing

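Without a filter 2942 genes passed (1391 higher, 1551 lower) and 3 members did. The lost members were H2AFV (log2 fold change -0.58, adjusted p = 0.112), H2AFY (-0.36, 0.140) and H3F3B (-0.39, 0.125). H2AFY was also lost without a trend (-0.36, adjusted p = 0.0511). Leaving out 1 library left 2697 to 4656 called genes (1212 to 2133 higher, 1485 to 2523 lower) and 3 to 7 members, all lower. Log2 fold changes then ran from -0.66 to -0.46 for H2AFV, from -0.44 to -0.29 for H2AFY, from -0.48 to -0.33 for H3F3B and from -0.31 to -0.19 for H1F0. HIST2H2BE ran from -0.24 to 0.0089, the last without vehicle 1 and of the opposite sign. Whether the replicate numbers pair the libraries is not in the labels, and the values did not settle it. Correlations of deviations were 0.254, -0.184 and 0.502, with 3 of 6 libraries closest to their own number. With a replicate block 5414 genes passed, and H1F0 (-0.24, adjusted p = 0.0441) and HIST1H2BK (-0.70, adjusted p = 0.0148) did too. With the term for the side of the second component, taken from these same values, 6031 genes passed. H1F0 (-0.20, adjusted p = 0.0224) and HIST1H2BK (-1.08, adjusted p = 0.000756) then passed as well. The GC correction gave -1.55 for H2AFX (adjusted p = 2.6e-05) and changed no member's call. Changes were also smaller with it for H2AFY (-0.27), H1F0 (-0.20), HIST1H1C (-0.37) and HIST1H2BK (-0.48). They were larger for H2AFZ (-0.56), H2AFV (-0.66), H3F3B (-0.47), HIST1H2AC (-0.56) and HIST2H2BE (-0.12). The other pseudocount, filter at 5 FPKM and scalings changed no member's call either. Of 343 results for 23 list genes under these settings, 30 lost the call and none reversed; under the GC correction these were RUVBL1 (adjusted p = 0.109) and RUVBL2 (0.0733). After the GC correction the ratio differences were -0.99 for H2AFX over H2AFZ, 0.29 for H2AFY over H2AFZ and 0.99 for HIST1H2AC over H2AFX, each moved by more than the spread between libraries. Under the other settings run for ratios (pseudocount, scalings, block and left-out libraries) they moved by less. HIST2H2BE was not tested at the 5 FPKM filter. The causes of these changes were not tested.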
